A study of Mus musculus with 16 samples.

Results

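The genes described here are 10 transcription factors that set the identity and the differentiation of the intestinal epithelium: Hnf4a, Hnf4g, Cdx1, Cdx2, Gata4, Gata6, Klf4, Klf5, Maf and Prdm1. They were picked by gene symbol. All 10 were found among the 52636 genes of the crypt table and of the KO-CAG organoid table and among the 54532 genes of the KO-IEC organoid table, and all 10 passed the filter on low counts in each. The question asked of each gene was whether its mRNA level changed when Cul4b was deleted. Cul4b encodes a cullin scaffold of a ubiquitin ligase.

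RNA-seq libraries came from small intestine of C57BL/6 mice in 3 experiments, each with its own wildtype libraries. In the first, 4 KO-IEC crypt libraries (pVillin-Cre; Cul4b fn/Y) were set against 4 WT crypt libraries. In the second, 2 KO-IEC organoid libraries of the same genotype were set against 2 WT organoid libraries. The study gives the WT control of KO-IEC mice as Cul4b fn/Y, with no Cre named, so Cre and deletion cannot be told apart in these comparisons. In the third, 2 KO-CAG organoid libraries (CAG-CreERT2; Cul4b fn/Y) were set against 2 WT organoid libraries. The Villin promoter drives Cre in the intestinal epithelium from before birth, so those mice lacked Cul4b in every epithelial lineage. CAG-CreERT2 is active in all cells once 4-OHT is given, which organoids received at 10 µM. Whether the WT cultures of the third experiment carried CreERT2 or received 4-OHT is not given in the sources used here, so that deletion and drug cannot be told apart there. Mice were 8 to 16 weeks old in most experiments of the study. The study's methods call the libraries of a group biological replicates. Whether organoid replicates came from separate animals or from separate cultures of the same animal is not given in the sources used here, and for organoids the p-values below measure the spread between these libraries only.

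Hnf4a and Hnf4g are nuclear receptors that occupy enhancers of enterocyte genes, and together they maintain the brush border programme. Cdx1 and Cdx2 are caudal homeobox factors, and Cdx2 keeps intestinal cells from turning to a gastric fate. Gata4 marks the proximal small intestine and Gata6 is present along its whole length. Klf5 is a factor of proliferating crypt cells, whereas Klf4 is found in differentiated cells and takes part in goblet cell formation. Maf is a bZIP factor of mature villus enterocytes. Prdm1 (Blimp-1) represses adult enterocyte genes in the suckling gut and is switched off around weaning.

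Total counts ranged from 7348191 to 16881395 per library. Cul4b was at 31.7 to 38.3 CPM (counts scaled to library size) in WT crypts against 0.848 to 2.21 CPM in KO-IEC crypts, at 73.2 to 83.2 against 1.69 to 1.76 CPM in the KO-IEC organoid experiment, and at 70.1 to 72.9 against 3.34 to 5.19 CPM in the KO-CAG experiment, so every library matched its label. Alpi, an enterocyte enzyme, was detected in all libraries (72.8 CPM or more), as was the crypt marker Olfm4 (13.7 CPM or more). The crypt libraries fell into classes by their mitochondrial ribosomal RNA: 1 WT and 3 KO libraries were at 18.9 to 25.2 CPM, 1 WT and 1 KO library were at 834 and 1078 CPM, and the other 2 WT libraries were at 2840 and 2873 CPM. This split ran across genotype unevenly, and for the 10 factors crypt values are also given inside the classes that hold both genotypes.

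Within WT libraries the members covered a wide range of levels. Per kilobase of gene length, Hnf4a was the most abundant in all 3 experiments, at a mean of 235 CPM per kb in WT crypts, 224 in the WT libraries of the KO-IEC organoid experiment and 183 in those of the KO-CAG experiment. Prdm1 was the least abundant, at 0.393, 0.437 and 0.478 CPM per kb, with 11 to 62 counts in any library. In WT crypts the order below Hnf4a was Klf5 (178 CPM per kb), Cdx1 (154), Cdx2 (119), Hnf4g (66.0), Gata4 (51.8), Gata6 (32.1), Klf4 (26.1) and Maf (14.1). The ranges of WT libraries overlapped between Klf5 and Cdx1, Cdx1 and Cdx2, Hnf4g and Gata4, Gata6 and Klf4, and Klf4 and Maf, so these neighbours could not be ranked. Maf showed the widest spread across systems: its WT level was 66.0 to 172 CPM in crypts, 9.04 and 16.99 CPM in the second experiment and 30.1 and 43.0 CPM in the third. Tissue and culture were separate experiments, and no test was run between them.

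**Figure D1:**
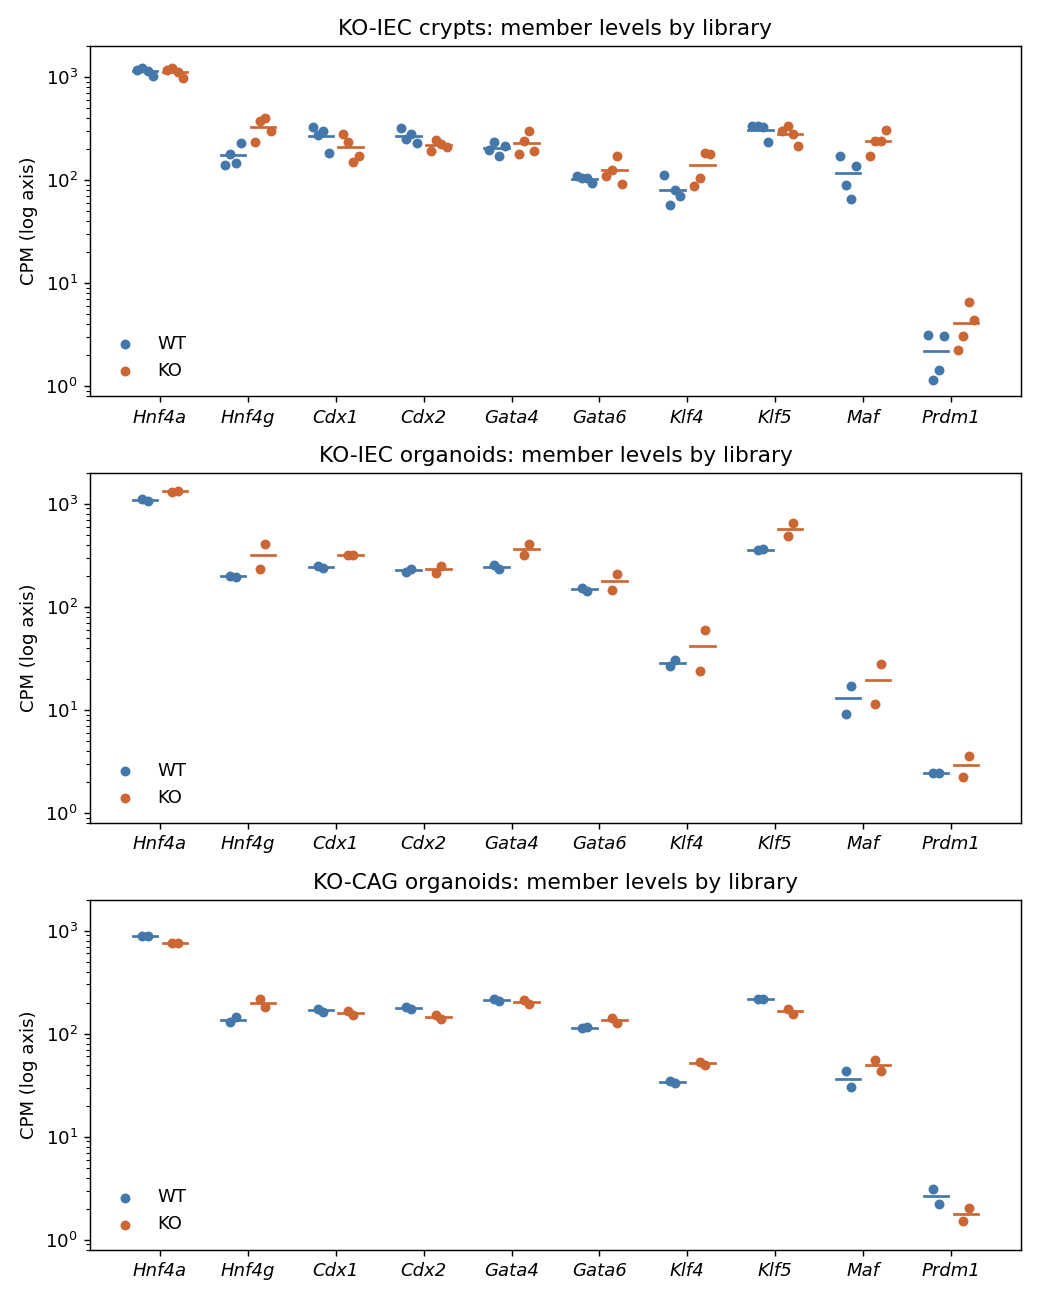
Level of each of the 10 factors in every library (CPM, log axis), with WT libraries in blue, KO libraries in orange and a bar at the group mean, for KO-IEC crypts (4 against 4), KO-IEC organoids (2 against 2) and KO-CAG organoids (2 against 2). Hnf4g is the only factor whose WT (141 to 227 CPM) and KO (236 to 398 CPM) crypt libraries do not overlap.

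In KO-IEC crypts Hnf4g was the only one of the 10 factors that passed the test, and it rose. The 4 WT libraries were at 141, 180, 147 and 227 CPM and the 4 KO libraries at 236, 376, 398 and 297 CPM. Every KO library was above every WT library, although the lowest KO and the highest WT library lay close together. The fitted log2 fold change was 0.91 ± 0.20 (SE, n = 4 and 4; adjusted p = 0.0438, edgeR, Benjamini-Hochberg over the 13427 genes tested), a 1.88-fold difference. Hnf4g lies on chromosome 3 (3508030-3658052, plus strand). Over all tested genes 4.30% were called higher and 2.66% lower, and 8.70% were higher and 8.79% lower without overlap between the groups, so that 1 of 10 is not set apart from this background.

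The enterocyte marker sum lay above all WT libraries in 3 of the 4 KO crypt libraries. The summed level of 12 enterocyte markers was 2780 to 12349 CPM in WT crypts and 11268 to 23641 CPM in KO crypts, with all 12 log2 fold changes positive and none called (11 at an unadjusted p under 0.05; DESeq2 called 8). Over all 13427 tested genes 4287 had an unadjusted p under 0.05, and DESeq2 called 2457, in both directions together. In bulk libraries, more cells of a type and more RNA per cell cannot be told apart. With an enterocyte marker score as a covariate the log2 fold change of Hnf4g was 0.52 (adjusted p = 0.589). The score ran from -1.63 to 0.29 in WT and from 0.079 to 1.09 in KO crypts, so score and genotype mostly went together. Only 1 gene in all was called with it, so this fit cannot separate the score from genotype. The log2 fold change of Hnf4g was 1.22 among libraries of the low mitochondrial class and 0.39 between the single libraries of the middle class. Without the high class it was 0.83 (adjusted p = 0.391). The call was also lost when any of 6 of the 8 libraries was left out (WT1, WT2, WT3, KO2, KO3 or KO4). Adjusted p in these fits ran from 0.0546 to 0.130, while the log2 fold change stayed between 0.82 and 1.09 in all 8 such fits. In the same 6 fits the count of all genes called fell from 934 to 20, 3, 11, 2, 2 and 513, in the order named. That count was 1 without the high class, and it rose to 1864 without WT4 and to 2468 without KO1. The loss of the call was thus not particular to Hnf4g.

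Its paralog Hnf4a was not called. It was at 1175, 1208, 1143 and 1015 CPM in WT and at 1168, 1227, 1108 and 981 CPM in KO crypts, and the groups overlapped over nearly their whole range. Its log2 fold change was -0.02 ± 0.12 (adjusted p = 0.930), and the differences inside the low and between the middle-class libraries were -0.01 and -0.05. An antisense gene, Hnf4aos, overlaps 34913 bases of Hnf4a on the other strand but held only 7 to 41 counts in crypt libraries against at least 10448 for Hnf4a. Whether counting used the strand is not given.

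Maf and Klf4 had crypt values of the same size as Hnf4g but did not pass the test. Maf was at 172, 90.3, 66.0 and 137 CPM in WT and 172, 237, 239 and 303 CPM in KO libraries, with the lowest KO library just below the highest WT library. The fit gave a log2 fold change of 1.03 ± 0.29 (adjusted p = 0.0575). Klf4 was at 111, 57.3, 79.9 and 70.3 CPM in WT and 87.5, 105, 181 and 181 CPM in KO libraries, and 2 KO libraries stayed inside the WT range. Its log2 fold change was 0.80 ± 0.28 (adjusted p = 0.0880). Both were called by the DESeq2 Wald test (adjusted p = 0.00515 for Maf and 0.0264 for Klf4). Their values differed between the library classes that hold both genotypes, but each of these holds 1 WT library. That of the low class, WT1, was the highest WT library for both (172 CPM for Maf and 111 CPM for Klf4). Class and single library cannot be told apart here. Inside the low mitochondrial class the differences were 0.31 for Maf and 0.10 for Klf4, and between the middle-class libraries 1.14 and 1.36. With the enterocyte score as a covariate they were 0.16 and 0.30.

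The other factors were not called in crypts. Cdx1 (log2 fold change -0.38 ± 0.23, adjusted p = 0.282) and Cdx2 (-0.31 ± 0.13, adjusted p = 0.137) had negative values, and Klf5 was at -0.12 ± 0.17 (adjusted p = 0.629). Gata4 (0.17 ± 0.17) and Gata6 (0.27 ± 0.17) had small positive values with adjusted p of 0.527 and 0.291. Prdm1 was at 1.13 to 3.13 CPM in WT and 2.22 to 6.57 CPM in KO crypts, with 12 to 62 counts per library, and its log2 fold change of 0.88 ± 0.43 had an adjusted p of 0.186. Several of these values differed between library classes as well, again with a single WT library in each class. In the low class against the middle class the differences were -0.61 and -0.09 for Cdx1, -0.54 and -0.11 for Cdx2, 0.27 and -0.16 for Gata4, 0.28 and -0.01 for Gata6, and 0.18 and 0.51 for Prdm1, while those of Klf5 were -0.16 and -0.13.

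Maf and Prdm1 are also known from lymphocytes, and 16 immune cell markers summed to 304 to 839 CPM in WT and 202 to 890 CPM in KO crypts, with none of the 14 tested called (2 at an unadjusted p under 0.05; DESeq2 called 1). That sum was mostly Cd74, an antigen presentation gene at a mean of 411 CPM in WT and 332 CPM in KO crypts. Of the 14 tested markers 9 had positive and 5 negative values, with a median log2 fold change of 1.02 against -0.01 over all tested genes, which is of the size of the Maf and Prdm1 values. The T cell genes Cd3e (1.70 ± 0.67, adjusted p = 0.119; 0.480 to 2.01 CPM in WT, 1.37 to 11.3 CPM in KO) and Cd8a (1.56 ± 0.70, adjusted p = 0.159; 1.52 to 10.9 CPM in WT, 5.88 to 37.8 CPM in KO), chosen after their values were seen, had the highest values of the list, and their groups overlapped. The part of immune cells in the Maf and Prdm1 values was not tested.

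In KO-IEC organoids none of the 10 factors was called by edgeR (2 at an unadjusted p under 0.05, and 0 by DESeq2). Cul4b itself was the only gene called there, 0.00717% of 13938. All 10 log2 fold changes were positive, with a median of 0.46 against -0.01 over all tested genes. Hnf4a, Hnf4g, Cdx1, Gata4 and Klf5 were higher in both KO libraries than in both WT libraries. That makes 5 of 10 where 19.4% of all tested genes were higher and 19.4% lower without overlap.

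The 2 KO organoid libraries differed from each other more than the WT libraries did. Hnf4g was at 201 and 194 CPM in WT and at 233 and 408 CPM in KO. Klf5 was at 354 and 361 CPM in WT and 483 and 648 CPM in KO, and Gata4 at 253 and 231 CPM in WT and 315 and 409 CPM in KO. In each case the second KO library was the higher one. Klf5 had a log2 fold change of 0.66 ± 0.21, Gata4 of 0.58 ± 0.20 and Hnf4g of 0.70 ± 0.30, and all 3 had an adjusted p of 0.856. That second KO library also had the highest enterocyte sum of the experiment (15998 CPM against 5469 in the first KO library) and the highest sum of 7 goblet cell markers (7034 CPM against 1780 to 2093 in the other 3 libraries). Without the first KO library the log2 fold changes were 1.04 for Hnf4g, 0.75 for Gata4, 1.05 for Klf4 and 0.85 for Klf5. Without the second KO library they were 0.24, 0.38, -0.26 and 0.43, and Maf, Prdm1, Gata6 and Cdx2 also had negative values. Each of these fits had a single KO library, so only effect sizes are given. Hnf4a was at 1111 and 1054 CPM in WT and 1301 and 1334 CPM in KO, and Cdx1 at 249 and 240 CPM in WT and 320 and 317 CPM in KO. These 2 were the factors on which both KO libraries stood close together, with log2 fold changes of 0.28 ± 0.17 and 0.38 ± 0.15 (adjusted p = 0.856 for both).

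In KO-CAG organoids 4 of the 10 factors passed the test, Hnf4g and Klf4 rising and Cdx2 and Klf5 falling. In this experiment 18.1% of 13598 tested genes were called higher and 13.4% lower, so 2 of 10 in each direction is near the background. Without overlap were 3 factors higher (Hnf4g, Gata6 and Klf4) and 4 lower (Hnf4a, Cdx2, Klf5 and Prdm1), where 35.5% of all tested genes were higher and 34.2% lower. The WT and KO pairs of libraries were tighter here than in the other experiments, with a common biological coefficient of variation of 0.0815 against 0.231 in crypts and 0.280 in KO-IEC organoids.

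Hnf4g was at 129 and 146 CPM in WT and at 218 and 180 CPM in KO organoids, so both KO libraries were higher. The log2 fold change was 0.53 ± 0.11 (adjusted p = 0.00444), or 1.45-fold. Klf4 was at 34.7 and 33.3 CPM in WT and 53.2 and 49.8 CPM in KO. It rose by 0.60 ± 0.10 (adjusted p = 0.00191), or 1.51-fold, and here too the groups were apart. Klf5 was at 216 CPM in both WT libraries and at 175 and 155 CPM in KO. It fell by 0.39 ± 0.09 (adjusted p = 0.00800) on the log2 scale. Cdx2 was at 181 and 172 CPM in WT and 152 and 138 CPM in KO, and it fell by 0.28 ± 0.09 (adjusted p = 0.0311). The Cdx2 call was lost with the DESeq2 Wald test (adjusted p = 0.0766) and when either WT library (adjusted p = 0.230 without WT1 and 0.108 without WT2) or the second KO library (0.0548) was left out. All 4 calls were lost when the 16 libraries shared one estimate of the spread (adjusted p = 0.335 to 0.479).

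The remaining 6 factors did not pass the test. Hnf4a was at 886 and 881 CPM in WT and 753 and 751 CPM in KO, with a log2 fold change of -0.23 ± 0.09 (adjusted p = 0.0640). Gata6 was at 112 and 115 CPM in WT and 142 and 127 CPM in KO, with 0.24 ± 0.09 (adjusted p = 0.0587). Maf was at 43.0 and 30.1 CPM in WT and 56.0 and 43.0 CPM in KO, with 0.42 ± 0.17 (adjusted p = 0.0876). Cdx1 (-0.08) and Gata4 (-0.06) differed by less than their standard errors (0.08 and 0.09), and Prdm1 held only 11 to 26 counts per library (-0.56 ± 0.37, adjusted p = 0.274). The 16 immune markers summed to 1.17 and 2.77 CPM in WT and 10.3 and 7.21 CPM in KO, with 7 of 16 at 0 counts in every library and 2 of the 3 tested called higher (Csf1r, 2.77, and Cd74, which was at 0 counts in both WT libraries). Maf was at 232 to 447 counts in the same libraries. The part of immune cells in its value was not tested.

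The 5′ flanks of the factors called in opposite directions in KO-CAG organoids are shown because they are short reference windows on which the family's own binding letters can be looked up. RefSeq promoter windows (GRCm38.p6) were at hand for 4 of the 10 members, and of the called ones for Klf4 and Cdx2. Up to 250 bases before the start are printed 5′ to 3′ on the strand of the gene, cut short where an exon of the gene begins. The Klf4 window has the full 250 bases, and the Cdx2 window was cut at an exon. Capitals mark matches to TTTAT (caudal factors), GATAA (GATA factors), CAAAG (a nuclear receptor half-site of HNF4) or CACCC (Krüppel-like factors) on either strand. A run reading GATAAA would count for both of the first motifs.

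Klf4, chr4:55532476-55532725, minus strand: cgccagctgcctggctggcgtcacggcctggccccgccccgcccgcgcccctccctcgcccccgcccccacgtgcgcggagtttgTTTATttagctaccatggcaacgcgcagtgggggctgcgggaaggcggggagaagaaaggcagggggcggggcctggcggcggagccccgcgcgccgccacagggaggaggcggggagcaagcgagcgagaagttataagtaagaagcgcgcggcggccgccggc
Cdx2, chr5:147307271-147307499, minus strand: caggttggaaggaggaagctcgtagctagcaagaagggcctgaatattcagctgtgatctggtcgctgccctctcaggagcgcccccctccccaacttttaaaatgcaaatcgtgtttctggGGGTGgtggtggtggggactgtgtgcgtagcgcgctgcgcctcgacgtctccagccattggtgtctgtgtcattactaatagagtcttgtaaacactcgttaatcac

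The Klf4 window of 250 bases held 1 caudal match and no match to the others, and the Cdx2 window of 229 bases held 1 Krüppel-like match, read from the opposite strand, and no match to the others. These are common letters: among 32851 promoter windows of 250 bases, 37.3% held TTTAT, 22.6% GATAA, 48.6% CAAAG and 52% CACCC. No binding was measured in these libraries.

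**Figure D2:**
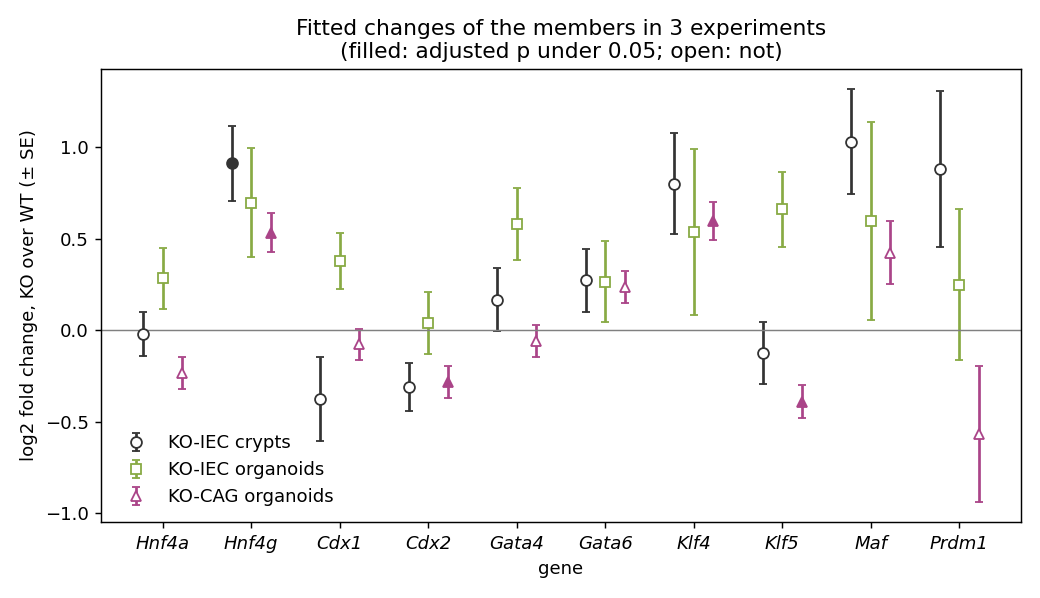
Fitted log2 fold change of KO over WT (± SE) for each factor in KO-IEC crypts (circles), KO-IEC organoids (squares) and KO-CAG organoids (triangles), filled where the adjusted p is under 0.05. Hnf4g lies above 0 in all 3 experiments (0.91, 0.70 and 0.53), and Klf5 lies above 0 in KO-IEC organoids (0.66) and below it in KO-CAG organoids (-0.39). Klf5 and Gata6 are counted over longer gene models in the KO-IEC organoid table.

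Across the experiments, which share no libraries, Hnf4g, Gata6, Klf4 and Maf had positive values in all 3. All 10 values were positive in KO-IEC organoids, so only the signs in crypts and KO-CAG organoids set these factors apart. Without the second KO library, Gata6, Klf4 and Maf had negative values in KO-IEC organoids. The share of all genes with 1 sign throughout was not worked out. Hnf4g was at 0.91, 0.70 and 0.53 and Klf4 at 0.80, 0.54 and 0.60 in crypts, KO-IEC organoids and KO-CAG organoids. The difference between experiments was tested in one fit of the 16 libraries. No factor was called as changing differently between crypts and KO-CAG organoids (0 at an unadjusted p under 0.05; 0.372% of 15585 genes called), between crypts and KO-IEC organoids (2 at an unadjusted p under 0.05; 0.00642% called) or between both kinds of organoids (2 at an unadjusted p under 0.05; 0.385% called). The shares above are those of edgeR. For DESeq2, which called 0, 0 and 2 factors, the share over all genes was not worked out. The 2 were Klf5, whose change was higher in KO-IEC than in KO-CAG organoids by 1.07 ± 0.31 on the log2 scale (adjusted p = 0.194 by edgeR and 0.0472 by DESeq2), and Hnf4a, by 0.54 ± 0.19 (adjusted p = 0.312 and 0.0468). The KO-IEC organoid table counts Klf5 over a gene model of 5201 bases that reaches further at the 3′ end (chromosome 14, 99298691-99315036), and the other tables over 1721 bases (99298691-99313405), so its levels are not comparable between tables. The difference in the Klf5 change between the organoids was also taken between these unlike models. The same limits hold for Gata6, counted over 5590 bases in the KO-IEC organoid table and over 3194 bases in the others.

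Ratios of paralogs within a library do not depend on library scaling. They are given as reads of one gene per 100 reads of the other, not per length, and were compared by exact two-sided permutation tests of log2 ratios (4 pairs in each experiment; smallest possible p = 0.0286 for 4 against 4 and 0.33 for 2 against 2). Hnf4g reads per 100 Hnf4a reads were 15.5 ± 4.7 (SD, n = 4) in WT and 29.3 ± 6.6 (n = 4) in KO crypts, with an overlap between the highest WT (22.3) and the lowest KO library (20.2; exact permutation p = 0.0571, 0.229 adjusted over the 4 pairs). In KO-CAG organoids the ratio was 14.5 and 16.5 in WT and 28.9 and 23.9 in KO, without overlap (exact permutation p = 0.33). In KO-IEC organoids it was 18.1 and 18.4 in WT and 17.9 and 30.6 in KO, so only the second KO library was higher.

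Klf4 reads per 100 Klf5 reads were 16.1 and 15.4 in WT and 30.4 and 32.2 in KO-CAG organoids, and 17.3 to 32.8 in WT against 29.5 to 84.8 in KO-IEC crypts (exact permutation p = 0.143, 0.286 adjusted). In KO-IEC organoids, where Klf5 has the longer model, the ratio was 7.52 and 8.48 in WT and 4.93 and 9.15 in KO, so the KO libraries lay on both sides of the WT ones (exact permutation p = 1). Gata4 reads per 100 Gata6 reads went opposite ways in the organoids, from 161 and 165 in WT to 194 and 215 in KO-IEC and from 179 and 191 in WT to 150 and 151 in KO-CAG organoids, each without overlap (exact permutation p = 0.33 in both, and the difference between them was not tested). Gata6 has different models in the 2 organoid tables, so these ratios can be set side by side only as WT against KO within a table. In crypts the Gata4 to Gata6 ratio was 166 to 229 in WT and 164 to 205 in KO. Cdx2 reads per 100 Cdx1 reads were lower in KO than in WT organoids without overlap, at 66.6 and 79.1 against 86.8 and 97.5 in the KO-IEC experiment and at 91.4 and 90.2 against 104 and 105 in the KO-CAG experiment (exact permutation p = 0.33 in both), and 68.3 to 148 in KO against 90.5 to 126 in WT crypts (exact permutation p = 0.8).

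**Figure D3:**
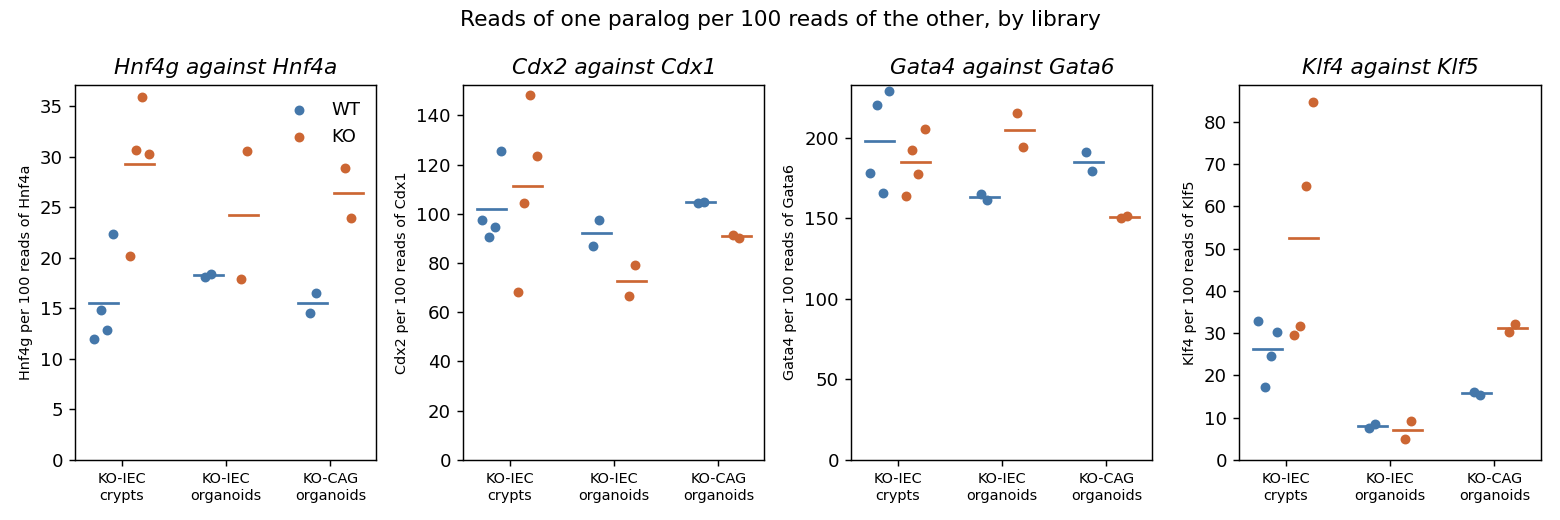
Reads of one paralog per 100 reads of the other in every library, WT in blue and KO in orange with a bar at the mean, for the 4 paralog pairs in the 3 experiments. The Klf4 to Klf5 ratio is 15.4 and 16.1 in WT and 30.4 and 32.2 in KO-CAG organoids, and Klf5 is counted over a longer gene model in the KO-IEC organoid table, as is Gata6, so the levels of the Klf4 to Klf5 and Gata4 to Gata6 ratios in that table cannot be set against those of the other tables.

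Genes that HNF4 and CDX2 factors are known to regulate in enterocytes were examined beside the factors. Of 27 such genes, all 27 had a positive log2 fold change in KO-IEC crypts, with a median of 1.37 against -0.01 over all tested genes. Of the 27 genes 22 had an unadjusted p under 0.05, and DESeq2 called 17. Of all 13427 tested genes in crypts, 4287 had an unadjusted p under 0.05, and DESeq2 called 2457, in both directions together. By edgeR 4 of the 27 rose, where 4.30% of all tested genes were called higher. These 4 were Apob (1.91 ± 0.40, adjusted p = 0.0413), the apolipoprotein of chylomicrons, Cdhr2 (1.37), a cadherin of microvilli, Mttp (1.27), which loads lipid onto Apob, and Vil1 (1.00), the microvillar villin. In KO-CAG organoids, where 18.1% of all tested genes were called higher and 13.4% lower, 23 of the 27 rose and none fell. Their median was 1.17. The largest changes were those of Guca2b (2.48 ± 0.16, adjusted p = 6.69e-06), a guanylate cyclase ligand, Apoa1 (2.39), Apoa4 (2.01) and the brush border protease Mep1b (1.93). In KO-IEC organoids none was called (0 at an unadjusted p under 0.05 and 0 by DESeq2), with 20 positive and 7 negative values and a median of 0.25. Of the 27 genes 10 are also among the 12 enterocyte markers (37% and 83.3% of each list).

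**Figure D4:**
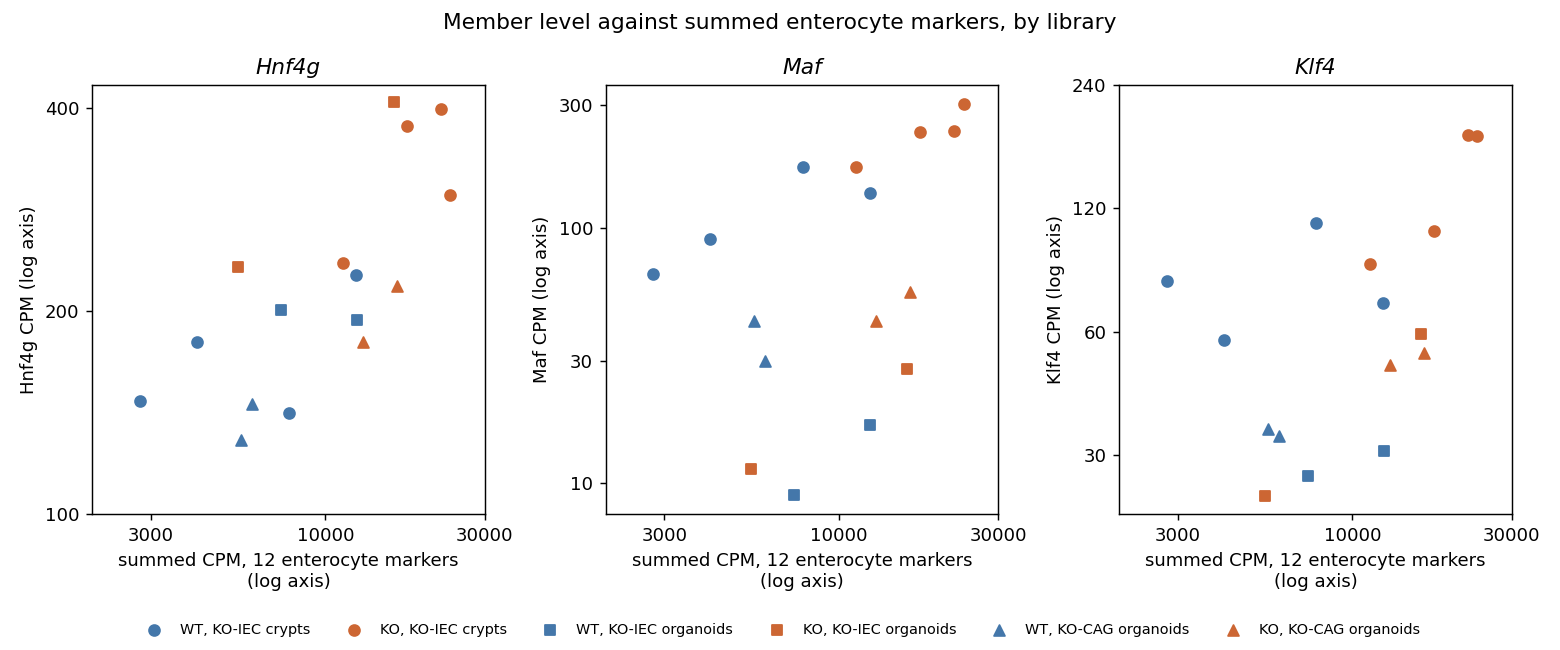
Level of Hnf4g, Maf and Klf4 (CPM, log axis) against the summed level of 12 enterocyte markers (CPM, log axis) in each of the 16 libraries, by experiment (symbol) and genotype (WT blue, KO orange). Crypt libraries run from 2780 CPM of enterocyte markers with Hnf4g at 147 CPM to 23641 CPM with Hnf4g at 297 CPM, and Maf is lower in organoids than in crypts at a like enterocyte sum.

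Among 34 other transcription factors of intestinal identity and lineage, 2 rose and 1 fell in KO-IEC crypts (DESeq2 called 7 higher and 1 lower). Over all tested genes 4.30% were called higher and 2.66% lower there, so the edgeR counts are near the background. DESeq2 called 2457 of the 13427 tested genes there, in both directions together. Nr1i2, the xenobiotic receptor PXR, rose from 83.8 to 96.1 CPM in WT to 109 to 131 CPM in KO crypts (log2 fold change 0.38 ± 0.10, adjusted p = 0.0493). Ascl2, a factor of crypt base stem cells, fell from 12.3 to 17.1 CPM to 6.999 to 10.8 CPM (-0.67 ± 0.17, adjusted p = 0.0499). In KO-CAG organoids 8 of the 34 rose and 6 fell, where 18.1% of all tested genes were called higher and 13.4% lower. These counts too are near the background. Among the 4 with the largest changes were Creb3l3 (log2 fold change 1.51), a regulator of apolipoprotein genes, Neurog3 (0.85), the enteroendocrine determinant, and Klf6 (0.73). In KO-IEC organoids none of the 34 was called by edgeR (7 at an unadjusted p under 0.05; DESeq2 called 1 lower).

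Regional and age-related enterocyte genes were examined because GATA factors set region and Prdm1 and Maf act on the suckling-to-adult switch. Of 13 tested genes with proximal or distal expression none was called in crypts (4 at an unadjusted p under 0.05, and DESeq2 called 3 higher). In KO-CAG organoids 8 of the 13 rose, where 18.1% of all tested genes were called higher. The 4 with the largest changes there were Slc51b (1.66), Slc51a (1.62) and Slc10a2 (1.42), bile acid transporters of the ileum, and the mucin Muc3 (1.55). Slc10a2 was at 1.55 and 1.69 CPM in WT, where 3 counts correspond to 0.362 and 0.395 CPM. In KO-IEC organoids none of 12 tested was called (1 at an unadjusted p under 0.05, and 0 by DESeq2). Of 10 tested suckling-type and adult enterocyte genes, Cubn alone rose in crypts (2.37 ± 0.48, adjusted p = 0.0407; 7.76 to 39.7 CPM in WT, 73.0 to 142 CPM in KO; DESeq2 called 5). Cubn encodes cubilin, an endocytic receptor of the ileum and of the suckling gut. Over all tested genes 4.30% were called higher in crypts, so 1 of 10 is not set apart from this background. DESeq2 called 2457 of the 13427 tested genes in crypts, in both directions together. In KO-CAG organoids 6 of the 10 rose and 1 fell, where 18.1% of all tested genes were called higher and 13.4% lower. Cubn led there too (3.32 ± 0.41, adjusted p = 0.000305), followed by Treh (1.67), a brush border disaccharidase of the adult gut, Ass1 (0.93), an enzyme of the suckling gut, and Arg2 (0.84), an enzyme of the adult gut. In KO-IEC organoids none of 10 was called (2 at an unadjusted p under 0.05, and 0 by DESeq2).

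Markers of other cell types moved beside the factors. Lgr5, the receptor of crypt base stem cells, fell in KO-IEC crypts (24.2 to 27.6 CPM in WT, 13.1 to 18.5 CPM in KO; -0.74 ± 0.13, adjusted p = 0.0379) and among KO-CAG organoids (-1.25 ± 0.13, adjusted p = 9.27e-05), with a value of -1.50 ± 0.18 (adjusted p = 0.856) in KO-IEC organoids. Of 9 stem cell markers 3 fell in crypts, and 4 fell and 1 rose in KO-CAG organoids. Of 8 proliferation markers 1 fell in crypts and 4 fell in KO-CAG organoids. Over all tested genes 4.30% were called higher and 2.66% lower in crypts, and 18.1% higher and 13.4% lower in KO-CAG organoids. Secretory markers rose in KO-CAG organoids (6 of 7 Paneth cell, 7 of 7 goblet cell, 9 of 9 enteroendocrine and 1 of 5 tested tuft cell markers), where enterocyte markers also rose (11 of 12; 5574 and 6010 CPM in sum in WT, 12917 and 16373 CPM in KO). None of the secretory markers was called in crypts (2 Paneth cell, 1 goblet cell, 1 enteroendocrine and 0 tuft cell markers at an unadjusted p under 0.05; DESeq2 called 1, 1, 1 and 0), where the Paneth cell sum was 10468 to 18889 CPM in WT and 2062 to 18110 CPM in KO. In KO-IEC organoids no marker of any of these lists was called. All 9 stem cell markers were lower there without overlap (median log2 fold change -1.69), where 19.4% of all tested genes were. All 7 Paneth cell markers (median -0.68) and all 8 proliferation markers (-0.39) had negative values, 4 and 0 of them without overlap. All 7 goblet cell markers had positive values (1.36), 3 without overlap. Enteroendocrine markers had 8 positive and 1 negative value, and enterocyte markers 9 and 3. At an unadjusted p under 0.05 were 3 stem cell, 2 Paneth cell, 2 goblet cell and 1 enterocyte marker, and DESeq2 called 2, 1, 1 and 0 of them, with 0 proliferation, enteroendocrine, tuft and immune markers by either. The 16 immune markers summed to 1.81 to 6.30 CPM there, 8 of them at 0 counts in every library. Mesenchymal and endothelial markers summed to 11.5 CPM or less in every library and none was called (0, 1 and 0 at an unadjusted p under 0.05 in the 3 experiments; 0 by DESeq2). Lyz1, the Paneth cell lysozyme, was at 3873 to 7786 CPM in WT and 825 to 3562 CPM in KO crypts (-1.10 ± 0.40, adjusted p = 0.103), and the goblet cell mucin Muc2 at 6.75 to 43.6 CPM in WT and 5.33 to 32.3 CPM in KO crypts. Both mitochondrial ribosomal RNAs were called higher in KO-CAG organoids (0.40 and 0.38) and neither in the other experiments. The part of these shifts in the values of the 10 factors was not tested. The enterocyte covariate in crypts cannot measure it, since score and genotype mostly went together.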

How the data were processed

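RNA-seq of 16 libraries was used. For each experiment the authors deposited a table of raw read counts by gene, without normalization. The submitters' processing notes name HISAT2 2.0.5 and featureCounts 1.5.0-p3, while the genome build, annotation and strand setting are not given in the sources used here. Gene positions in the tables were checked against GENCODE M21 (GRCm38): 95.2% to 98.3% of shared genes had the same start and end, and 8 or 9 of the 10 members did. Groups came from sample titles.

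Each experiment was fitted alone, KO against WT, with filterByExpr, TMM scaling and edgeR 4.0.16 in R 4.3.3 (quasi-likelihood F test), adjusted by Benjamini-Hochberg over all tested genes. Called, rose and fell mean an adjusted p under 0.05. The SE of a log2 fold change was taken as its size over the root of F. TMM-scaled CPM is given throughout, but for mitochondrial ribosomal RNA and the floor, which use total counts; 3 counts, taken as the floor, are 0.178 to 0.408 CPM. Differences between experiments came from 1 fit of the 16 libraries. DESeq2 1.42.0 was an alternative test. Differences inside mitochondrial classes (bounds at 100 and 2000 CPM) are of log2 CPM with a prior count of 2. The scripts were tested on simulated data. The members, the gene lists and the tests were chosen with earlier results of these data known, and the paralog ratios were added after values had been seen. Values named are those of every member, of Cul4b, of cell type level checks, and of up to 4 called genes with the largest absolute log2 fold change from each list. Outside this rule, values are also given for Cd3e, Cd8a and Cd74 in crypts, which were not called there, and for Hnf4aos, which overlaps Hnf4a. One listed gene is counted but not reported here by name.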

Additional observations from a re-analysis of the deposited data

Results flagged for a closer look

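In WT crypts, Klf5 was at 233 CPM in the fourth library against 324 to 337 CPM in the other 3. On the log scale, the gap from that library to its nearest neighbour was 0.89 of the whole range of the group, above Dixon's critical value for 4 samples. About 1 group in 20 is singled out in this way by chance. The same library had the highest enterocyte sum of the WT crypts (12349 CPM). Without it the log2 fold change of Klf5 was -0.22 (adjusted p = 0.341, edgeR) in place of -0.12.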

How the results depend on the processing

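In KO-IEC crypts 1 factor was called as reported. There were 3 without the low-count filter and with the DESeq2 Wald test, and 0 with a 2-fold minimum, the replicate block, the enterocyte covariate, the mitochondrial class covariate or the high class left out. Leaving out 1 library gave 0 to 3. In KO-IEC organoids 0 were called, and 0 in every other fit that kept all libraries. With 1 library left out a group held a single library, and no count of factors is given for those fits. In KO-CAG organoids 4 were called, 0 with a 2-fold minimum or with all 16 libraries in one fit. Between KO-IEC and KO-CAG organoids 0 factors differed, and 2 with DESeq2. The replicate numbers share only a number: same-number crypt correlations were -0.04, 0.19, -0.40 and 0.43, those of the organoids 0.34 and 0.07. The cause of these shifts was not tested.

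Signs changed for 18 values of single factors that were not called. With the enterocyte covariate in crypts, the log2 fold changes were 0.14 for Hnf4a, 0.16 for Cdx1, -0.044 for Gata4, 0.21 for Klf5 and -0.30 for Prdm1; without the high class Hnf4a was at 0.032. By library size only, Cdx2 in KO-IEC organoids was at -0.014. With 1 library left out, Hnf4a in crypts ran from -0.063 to 0.051, in KO-IEC organoids Cdx2 from -0.080 to 0.15, Gata6 from -0.016 to 0.50, Klf4 from -0.26 to 1.05, Maf from -0.19 to 1.10 and Prdm1 from -0.13 to 0.55, and Gata4 in KO-CAG organoids from -0.15 to 0.013. The other 370 values of single factors kept their sign and side of the threshold, 23 lost and 19 gained a call. The count of all genes called ran from 1 to 2468 in crypts (934 as reported), 0 to 2322 in KO-IEC organoids (1) and 477 to 5177 in KO-CAG organoids (4278). With 2 libraries a group, and with 11 to 62 counts for Prdm1, precision is limited.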
